A study of Mus musculus with 91 samples.

Results

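Sox1, Sox2 and Sox3 (the SoxB1 group) and Sox4, Sox11 and Sox12 (the SoxC group) were examined in single cells of the caudal lateral epiblast (CLE), 6 genes of the 53379 identifiers in the count table, taken by name. The 91 cells came from wild type MF1 mouse embryos, an outbred stock, of the early head fold stage (E8.0, embryonic day 8). All cells belong to a single group without treatment. The labels place the dissected tissue beside the node and the primitive streak and call the cells neuromesodermal progenitors and mesoderm, and the study's methods state that pieces were pooled before cells were sorted into wells. No embryo of origin is named, so the cells are 1 pooled sample, no test between kinds of cell can be made, and each SD is the spread between cells.

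SOX proteins are transcription factors that bind DNA through an HMG box, a domain that bends the double helix, and they often act with a partner such as a POU protein. SoxB1 proteins are activators that are known for keeping epiblast and neural progenitor cells undifferentiated, and Sox2 is used together with T (brachyury), a mesoderm regulator, to mark neuromesodermal progenitors. SoxC proteins are activators found in many embryonic progenitors and best known for neuronal differentiation and for mesenchymal cell survival.

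Cells were divided by a pair of genes that are not among the 6. A cell was epiblast-like when its Nkx1-2, a caudal epiblast homeobox gene, exceeded its Aldh1a2, which encodes a retinoic acid synthesizing enzyme of nascent mesoderm, in counts per 1000000 counts of that cell (CPM). This gave 43 epiblast-like cells (47.3% of 91, exact 95% Clopper-Pearson interval 36.7 to 58%) and 48 mesoderm-like cells. Total counts were 1260653 to 3927737 (median 2450073) in epiblast-like and 709866 to 4439571 (median 2589802) in mesoderm-like cells. The labels were checked with markers, from lists chosen with earlier results of these data known, so the check is not independent. Of 6 for epiblast 5 had at least a 2-fold higher level in epiblast-like cells. All 6 were read in 50% or more of these, but 3 also in 50% or more of mesoderm-like cells. All 8 for mesoderm had at least a 2-fold higher level in mesoderm-like cells. All 8 were read in 50% or more of these, and 1 also in 50% or more of epiblast-like cells. Summed over the list, epiblast markers ranged from 370 to 1968 CPM among epiblast-like cells and from 2.05 to 594 CPM among mesoderm-like ones. Mesoderm markers ranged from 0 to 579 and from 377 to 4150 CPM. Of 20 markers of node, endoderm, lateral mesoderm, blood and surface ectoderm (4 each) 10 had no read and none was read in 50% of either kind of cell, but 3 of the 5 that were measured were past 2-fold, all toward mesoderm-like cells. These were Foxf1 of lateral mesoderm (0 epiblast-like and 10 mesoderm-like cells with reads), Bmp4 (1 and 7) and Grhl3 of surface ectoderm (4 and 15), named after their values were seen. Summed lateral mesoderm markers reached 54.5 CPM among epiblast-like and 86.4 CPM among mesoderm-like cells, surface ectoderm markers 51.8 and 165 CPM, node markers 0 and 122 CPM, blood markers 40.3 and 0 CPM and endoderm markers 0.38 and 1711 CPM, the last from Cer1 in a single cell, in well D4, and the median cell of each kind was at 0 for all 5 lists. At least 5 reads of any of the 20 were present in 7 epiblast-like and 23 mesoderm-like cells. The pair of genes lay within 4-fold of each other, after 1 CPM was added to both, in 4 cells, those in wells B10, D1, E12 and G3.

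Each of the 6 genes has a single exon in the annotation of GRCm38. On that build Sox1 lies on chromosome 8 (12395295 to 12400126, plus strand), Sox2 on chromosome 3 (34650405 to 34652461, plus), Sox3 on chromosome X (60891366 to 60893430, minus), Sox4 on chromosome 13 (28948919 to 28953713, minus), Sox11 on chromosome 12 (27334264 to 27342574, minus) and Sox12 on chromosome 2 (152393611 to 152398063, minus). The stretches below are shown because they are where the coding sequences of the others are most like that of Sox2, and so where reads of different members could be taken for each other. Each is 75 bases of coding sequence in the part that encodes the HMG box, as long as 1 read, taken 5′ to 3′ from GENCODE transcripts at chr8:12396520-12396594 (Sox1), chr3:34650551-34650625 (Sox2), chrX:60892918-60892992 (Sox3), chr13:28952764-28952838 (Sox4), chr12:27342181-27342255 (Sox11) and chr2:152397498-152397572 (Sox12). Capitals mark the 45 bases that all 6 share.
Sox1: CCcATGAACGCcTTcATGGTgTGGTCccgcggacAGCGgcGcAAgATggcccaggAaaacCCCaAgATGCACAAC
Sox2: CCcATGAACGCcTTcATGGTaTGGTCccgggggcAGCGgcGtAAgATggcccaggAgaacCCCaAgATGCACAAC
Sox3: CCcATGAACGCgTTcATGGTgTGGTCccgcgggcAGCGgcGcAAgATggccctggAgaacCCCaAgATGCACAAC
Sox4: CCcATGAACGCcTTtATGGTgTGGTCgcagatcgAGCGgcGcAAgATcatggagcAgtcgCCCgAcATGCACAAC
Sox11: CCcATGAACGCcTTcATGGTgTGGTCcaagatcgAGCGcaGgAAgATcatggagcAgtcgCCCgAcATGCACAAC
Sox12: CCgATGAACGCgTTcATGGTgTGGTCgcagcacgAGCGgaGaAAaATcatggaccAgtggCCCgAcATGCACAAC
Within this stretch Sox2 matched Sox1 and Sox3 at 70 of 75 bases each (93.3%) and Sox11 at 54 (72%), while Sox4 matched Sox11 at 69 (92.0%) and Sox12 at 65 (86.7%). The longest run shared by any pair over their whole transcripts was 48 bases, between Sox4 and Sox11. Among SoxB1 pairs the longest shared run was 45 bases, between Sox1 and Sox3, and Sox2 shared at most 38 bases with another member, in this case Sox1. No 75-base window of Sox2, Sox3, Sox11 or Sox12 occurred in the transcript of another annotated gene. Of 4721 windows of Sox4, 2542 lie in Gm26735, a lincRNA on the opposite strand that covers 2616 of the 4795 exon bases of Sox4. Gm26735 had 0 reads in the 91 cells. The library method does not mark strand and no source used here states the strand setting of the counting, so reads of these overlapping genes cannot be told apart and the Sox4 counts are uncertain. Sox2 sits inside the span of the longer gene Sox2ot on the same strand without a shared exon base, and Sox2ot had 63 reads in 2 cells. Sox1 sits in the same way inside Sox1ot, which had 77 reads in 2 cells, and shares 86 exon bases with the miRNA gene Gm25239, which had no read.

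Epiblast-like cells had at least 2-fold more of all 3 SoxB1 genes, whereas all 3 SoxC genes stayed under 2-fold between the kinds of cell. The fold is the quotient of both mean CPM values, with 1 CPM added to each. That is 3 of the 6 members toward epiblast-like and 0 of 6 toward mesoderm-like cells. By the same rule 8.18% of the 18054 measured genes (those with a read in at least 3 cells) were higher in epiblast-like and 9.55% in mesoderm-like cells. The median log2 ratio, epiblast-like over mesoderm-like, was 3.30 over the SoxB1 genes and -0.24 over the SoxC genes, against 0.01 over all measured genes. Sox1 and Sox3 had no reads in mesoderm-like cells, so their ratios depend on the 1 CPM added. All 6 members were measured. Sox1 and Sox3 met the minimum of 3 cells through epiblast-like cells alone, Sox1 with exactly 3. Their calls toward these cells are therefore not independent of that filter. Without the 30 cells with at least 5 reads of a marker of another tissue, the log2 ratios were 1.78 for Sox1, 2.95 for Sox2, 3.79 for Sox3, -0.51 for Sox4, -0.27 for Sox11 and -1.05 for Sox12, so that Sox12 passed 2-fold toward mesoderm-like cells.

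**Figure D1:**
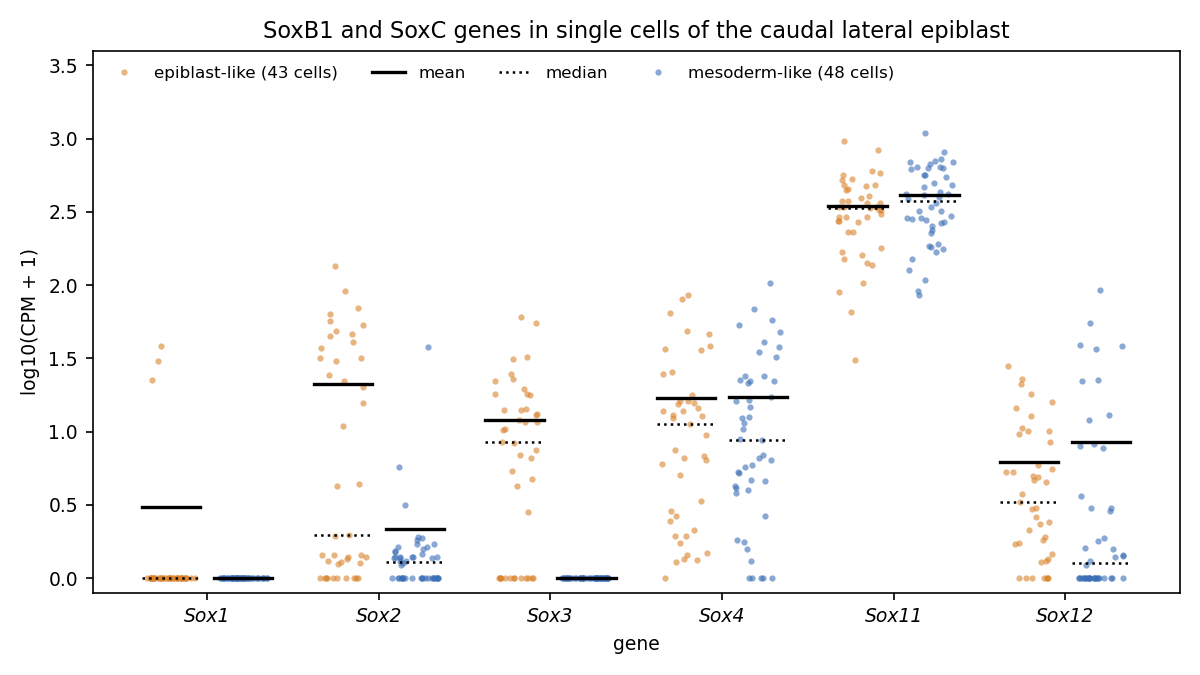
Each point is 1 cell, with log10(CPM + 1) on the vertical axis and the 6 genes along the horizontal axis, with 43 epiblast-like cells in orange and 48 mesoderm-like cells in blue; solid and dotted lines are the mean and the median CPM of the cells on this scale, and points are spread sideways only to be seen. Sox1 and Sox3 have no point above 0 among mesoderm-like cells, Sox2 reaches 133 CPM in epiblast-like cells with many cells of both kinds near 0, and Sox11 is high in every cell of both kinds.

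Sox3, a SoxB1 gene of early neural and epiblast cells, was read in epiblast-like cells only among these 91. It had 1133 reads in epiblast-like cells (exact 95% Poisson interval 1068 to 1201), where the lowest, median and highest cells had 0, 7.57 and 59.6 CPM. The 48 mesoderm-like cells had 0 reads, which allows a share of up to 6.25% of these cells when 3 cells of 48 are taken as the floor for a count of 0. The mean was 11 ± 13.4 CPM (SD over cells) in epiblast-like cells. With 3 reads over all mesoderm-like cells as the floor, the pooled level of 10.6 CPM was 452-fold above that floor. This fold takes reads as independent. It would be smaller if mesoderm-like cells within that share of 6.25% held Sox3. Sox3 was detected in 69.8% of epiblast-like cells (30 of 43, with an interval of 53.9 to 82.8%), and each of these 30 had at least 5 reads, from 5 to 135. The 13 epiblast-like cells at 0 had a median total count of 2473606 against 2393300 in the 30. Sox3 is among the markers that the study drew from these same cells for its epiblast cluster, so its direction is not independent evidence.

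Sox1, which is first known from the forming neural plate, was read in 3 epiblast-like cells. The reads numbered 61 in well A11, 53 in H8 and 47 in A1, which is 21.5, 29.2 and 37.3 CPM, and every other cell of both kinds was at 0. This is 6.98% of epiblast-like cells, with an interval of 1.46 to 19.1%, and the 0 of 48 mesoderm-like cells again allow up to 6.25% by that floor. The pooled level of 1.51 CPM was 64-fold above a floor of 3 reads over all mesoderm-like cells. This is not a lower bound on the difference, because all reads came from 3 cells. A share of mesoderm-like cells up to 6.25% with such reads would leave little difference. T stood at 0, 73.8 and 0 CPM in A11, H8 and A1, and the mesoderm gene Tbx6 at 0 CPM in all 3. All 3 also held Sox3, at 10.6, 23.7 and 11.9 CPM, and 2 of them held Sox2. The call of Sox1 rests on these few cells and on the pseudocount, as the log2 ratio was 1.61 with 1 CPM added and 0.27, under 2-fold, with 10 CPM added, and 0 by the median over cells.

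Sox2, which is shared by pluripotent, neural and neuromesodermal progenitor cells, was higher on average in epiblast-like cells, but 5 or more reads of it were present in only 21 of the 43. The lowest, median and highest epiblast-like cells had 0, 0.97 and 133 CPM, and the lowest, median and highest mesoderm-like cells 0, 0.28 and 36.98 CPM. The ranges overlapped, since cells at 0 and cells with a few reads occurred in both. The means of 20.2 ± 29.5 and 1.15 ± 5.33 CPM gave a log2 ratio of 3.30. Summed reads were 1974 (interval 1888 to 2063) and 161 (137 to 188). Of the 161 reads 109 came from 1 mesoderm-like cell, in well E12, which is also one of the 4 cells near the division between the kinds (Nkx1-2 at 290 CPM and Aldh1a2 at 697 CPM). Without that cell the log2 ratio was 3.93, and by the median over all cells it was 0.61, under 2-fold.

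Low read counts made up much of the Sox2 detection. At a minimum of 1 read Sox2 was found in 33 cells of the epiblast-like kind (76.7%, interval 61.4 to 88.2%) and 26 of the mesoderm-like kind (54.2%, 39.2 to 68.6%). At a minimum of 5 reads it was found in 21 (48.8%, 33.3 to 64.5%) and in 3 (6.25%, 1.31 to 17.2%). Among epiblast-like cells 10 had no read, 12 had 1 or 2 and 21 had 6 to 269. Among mesoderm-like cells 22 had no read and 23 had 1 to 3, and the other 3 had 5 (well F4), 15 (E6) and 109 (E12). No cell of either kind had 4 reads. After every cell was thinned to 500000 counts, Sox2 was found in 51.2% of epiblast-like and 14.6% of mesoderm-like cells.

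In epiblast-like cells the median total count was 2721666 at 0 Sox2 reads, 2541138 at 1 to 4 and 2336009 at 5 or more. In mesoderm-like cells the medians were 2481795, 2695513 and 2947254. Spearman's rho of Sox2 CPM with the total was -0.37 over the 43 epiblast-like cells. The total is also the divisor of CPM, so this rho does not measure depth alone. As a background, 15 genes of differentiated organs, such as Alb of the liver and Ins2 of the pancreas, were counted in the same way. Of their 645 gene and cell pairs in epiblast-like cells 0.47% had 1 to 4 reads, and of 720 pairs in mesoderm-like cells 0.56%, against 27.9% and 47.9% of cells for Sox2. At least 5 reads occurred in 11 and 15 of the pairs, of which the pituitary hormone gene Pomc, named after its values were seen, gave 11 and 13. As 10 of the 15 genes had no read in any cell, they cannot show how often a gene that is high in other wells gives low counts. Of the genes that divide the cells, Aldh1a2 had 1 to 4 reads in 13 of 43 epiblast-like cells. Nkx1-2 had 1 to 4 reads in 11 of 48 mesoderm-like cells. Low counts were not shared by the other SoxB1 genes, as Sox1 and Sox3 had no cell with 1 to 4 reads. They were shared by Sox4 and Sox12 but not by Sox11, which had at least 5 reads in every cell. Of the cells under 5 reads, 52.2% held 1 to 4 reads of Sox2, 73.9% of Sox4 and 42.3% of Sox12, against a median of 6.98% over 16939 measured genes with such cells. What gives rise to the low counts was not tested.

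**Figure D2:**
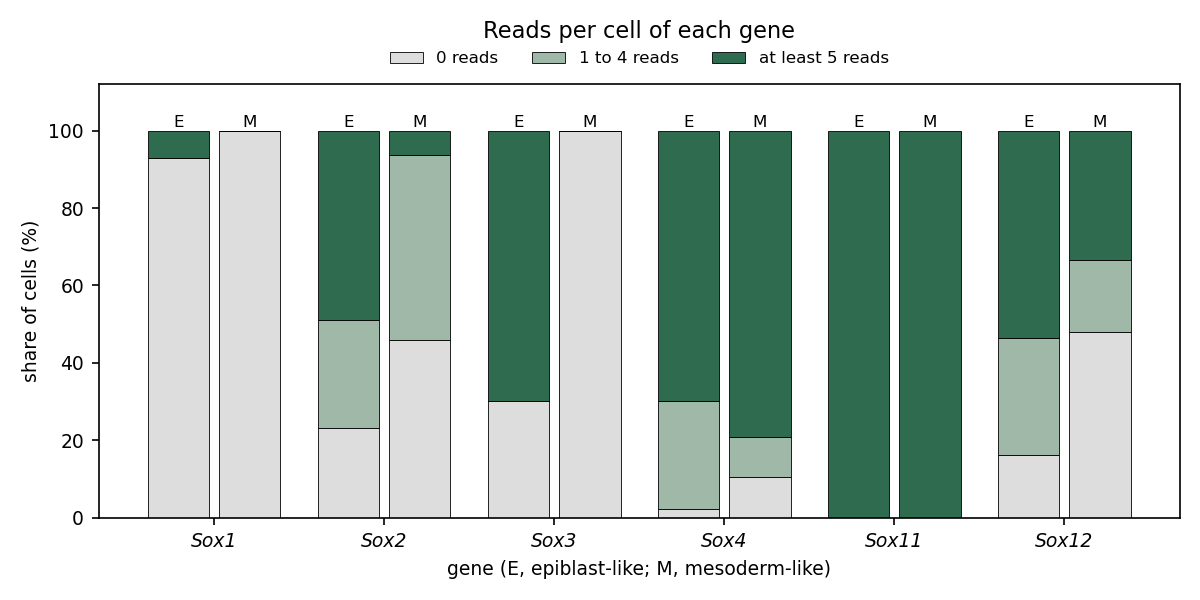
Bars are shares of cells (%) with 0, with 1 to 4 and with at least 5 reads of each gene, with E for the 43 epiblast-like and M for the 48 mesoderm-like cells. The middle class holds 23 mesoderm-like cells for Sox2 and none for Sox1, Sox3 or Sox11.

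Sox11, a SoxC gene of many embryonic progenitors, had reads in all 91 cells. The fewest were 54, in the epiblast-like cell of well H8, and 150 among mesoderm-like cells, in G7. The lowest, median and highest cells had 29.7, 334 and 960 CPM among epiblast-like cells and 85.1, 375 and 1095 CPM among mesoderm-like ones, and the ranges overlapped almost fully. The means were 346 ± 190 and 408 ± 222 CPM (log2 ratio -0.24), a difference smaller than either SD. H8 was also 1 of the 3 cells with Sox1 reads.

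Sox4, a SoxC gene of many progenitor and mesenchymal cells, averaged 16.1 ± 20.8 CPM over epiblast-like cells, against 16.2 ± 20.8 CPM over the mesoderm-like ones (log2 ratio -0.01). The lowest, median and highest cells had 0, 10.3 and 84.7 CPM and 0, 7.81 and 102 CPM. Reads were found in 42 of 43 (97.7%, interval 87.7 to 99.9%) and 43 of 48 cells (89.6%, 77.3 to 96.5%), and at least 5 reads in 30 and 38. Single cells stood far above the mean, among them the mesoderm-like cells E6 with 327 reads and E12 with 200, which are the cells with the most Sox2 reads of their kind.

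Sox12, the SoxC gene with the weakest known activity as an activator, differed in how it was spread over cells. The lowest, median and highest cells had 0, 2.32 and 27.2 CPM among epiblast-like cells and 0, 0.27 and 92.3 CPM among mesoderm-like ones, and the ranges overlapped. Sox12 was read in 36 cells of the epiblast-like kind (83.7%, interval 69.3 to 93.2%) and 25 of the mesoderm-like kind (52.1%, 37.2 to 66.7%). The mean leaned the other way, with 5.19 ± 6.68 and 7.44 ± 17.4 CPM (log2 ratio -0.45). The 2 highest mesoderm-like cells, H2 with 181 and G1 with 173 reads, held more than any epiblast-like cell, whose highest count was 76. By the median over cells the log2 ratio was 1.38, past 2-fold toward epiblast-like cells. At least 10 CPM was reached in 7 and 9 cells, and the median total count of mesoderm-like cells without a Sox12 read was 2513377.

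Levels of different genes were compared per kilobase of exon (RPKM from the exon bases of the annotation). In epiblast-like cells the order of mean RPKM was Sox11 (41.6 ± 22.9), Sox2 (9.82 ± 14.4), Sox3 (5.32 ± 6.47), Sox4 (3.35 ± 4.34), Sox12 (1.17 ± 1.5) and Sox1 (0.42 ± 1.6). Only the step from Sox11 to Sox2 exceeded the SD of both neighbours. By median RPKM Sox2 dropped to 0.47, behind Sox3 (3.66), Sox4 (2.16) and Sox12 (0.52). If only the 2179 exon bases of Sox4 outside the antisense lincRNA were counted as its length, its mean would be 7.38 RPKM, above Sox3. In mesoderm-like cells the order was Sox11 (49.1 ± 26.7), Sox4 (3.38 ± 4.34), Sox12 (1.67 ± 3.91) and Sox2 (0.56 ± 2.59), with Sox1 and Sox3 at 0. Among 18043 measured genes with an annotated length Sox11 stood above 91.1% by mean RPKM in epiblast-like and above 92.7% in mesoderm-like cells, while Sox2 stood above 73.9% and 29.4%.

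Summed per cell, SoxB1 RPKM was 11.3 in the median epiblast-like cell (range 0 to 64.7) and 0.14 in the median mesoderm-like cell (0 to 18). SoxC RPKM was 44.8 (8.87 to 116) and 49.1 (10.2 to 132). SoxB1 genes held a median of 22.6% of the summed SoxB1 and SoxC RPKM in epiblast-like cells, with a range of 0 to 71.6%, and 0.21% in mesoderm-like cells. Sox11 alone made up a median of 89.96% and 93.4% of SoxC RPKM. Relative to its mean, Sox11 also varied least, with an SD of 54.9% and 54.3% of the mean. In epiblast-like cells this was 122% for Sox3, 129% for Sox4, 129% for Sox12, 146% for Sox2 and 379% for Sox1. In mesoderm-like cells it was 129% for Sox4, 234% for Sox12 and 462% for Sox2. Sox11 also had the highest mean, and whether its smaller spread goes beyond its level was not tested.

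Members were often read in the same cell, which the shares of the single genes alone make likely. Sox11 was read in all 91 cells and Sox4 in 42 epiblast-like and 43 mesoderm-like cells, and no expected number was computed. At a minimum of 1 read, 42 of 43 epiblast-like cells held at least 1 SoxB1 gene and all held at least 2 SoxC genes. All 6 members were read in 2 epiblast-like cells, 5 in 17, 4 in 18 and 3 in 6. In mesoderm-like cells 4 members were read in 12 cells, 3 in 23, 2 in 12 and 1 in 1. At a minimum of 5 reads, which leaves out the low Sox2 counts, 35 of the 43 epiblast-like cells kept at least 1 SoxB1 gene and 8 had none, while 45 of 48 mesoderm-like cells had none.

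**Figure D3:**
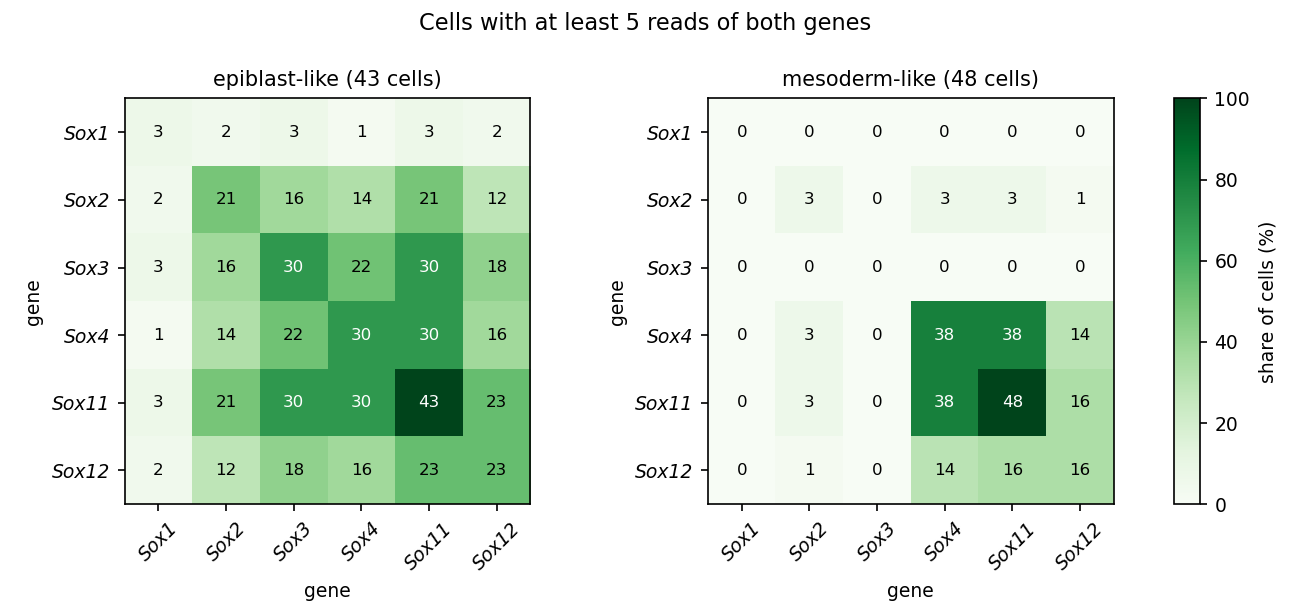
Each square gives the number of cells with at least 5 reads of both genes of a pair, shaded by the share of cells (%), with epiblast-like cells on the left and mesoderm-like cells on the right; the diagonal gives each gene alone. Sox2 and Sox3 meet in 16 of 43 epiblast-like cells and in no mesoderm-like cell.

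Sox2 and Sox3 overlapped in part over epiblast-like cells. At a minimum of 5 reads 16 cells held both (37.2%), 14 held Sox3 without Sox2, 5 held Sox2 without Sox3 and 8 held neither. Sox3 was present in 16 of 21 cells with Sox2 (76.2%, interval 52.8 to 91.8%) and in 14 of 22 cells without it (63.6%, 40.7 to 82.8%). These intervals overlap widely, and Spearman's rho between the 2 genes over the 43 cells was -0.10, a weak value in sparse counts. Sox4 was likewise present in 66.7% of cells with Sox2 and 72.7% of cells without, and Sox12 in 57.1% and 50%. All cells share 1 preparation, and totals differed between the combinations, with a median of 2393300 in cells with both, 2244377 with Sox2 alone, 2445812 with Sox3 alone and 2918675 with neither.

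T was compared across these combinations, which are defined by the members' reads in the same cells. Its lowest, median and highest values were 0, 70.5 and 649 CPM in the 16 cells with both, 43.3, 459 and 927 CPM in the 5 with Sox2 alone, 0, 25.8 and 750 CPM in the 14 with Sox3 alone and 0, 134 and 1536 CPM in the 8 with neither. At least 5 reads of T were present in 11 of 16, 5 of 5, 7 of 14 and 5 of 8 cells. The ranges of all combinations overlapped. Nkx1-2 had medians of 867, 1015, 841 and 974 CPM in the same order. The epithelial gene Cdh1 had medians of 353 and 322 CPM in cells with Sox2 (with and without Sox3) and of 240 and 204 CPM in cells without it, again with overlapping ranges.

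**Figure D4:**
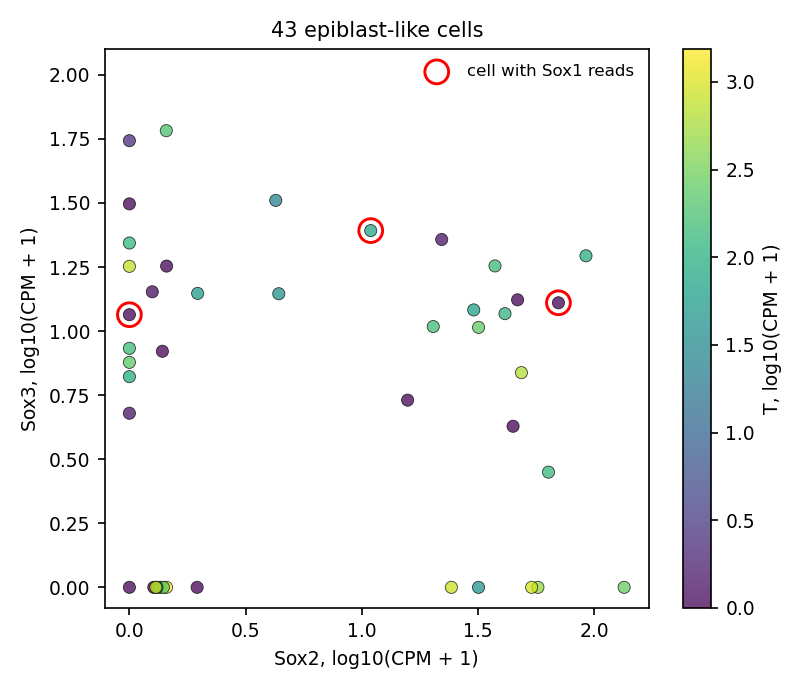
Each point is 1 of 43 epiblast-like cells, with log10(CPM + 1) of Sox2 on the horizontal and of Sox3 on the vertical axis and T as colour; red circles mark the 3 cells with Sox1 reads. Points lie along both axes as well as between them, and the 3 circled cells all hold Sox3.

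Sox genes outside these groups were mostly at or near 0. Of 13 genes of the SoxB2, SoxD, SoxE, SoxF, SoxG and SoxH groups, 6 had no read in any cell (Sox14, Sox21, Sox10, Sox17, Sox15 and Sox30) and 5 had reads in only 1 or 2 cells (Sox5, Sox6, Sox7, Sox8 and Sox18). The remaining 2, Sox13 and Sox9, were measured, past 2-fold on opposite sides and at mean CPM within the range of the members. Sox13, a SoxD gene, was read in 29 epiblast-like and 16 mesoderm-like cells, with means of 26.2 ± 31.8 and 8.66 ± 16.2 CPM (log2 ratio 1.49). Sox9, a SoxE gene of cartilage and neural crest, was read in 15 and 24 cells, with means of 5.94 ± 11.3 and 15.9 ± 24.5 CPM (log2 ratio -1.28). The SoxB2 genes Sox14 and Sox21, whose proteins are repressors that oppose SoxB1 activators, were among those at 0 in both kinds of cell.

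**Figure D5:**
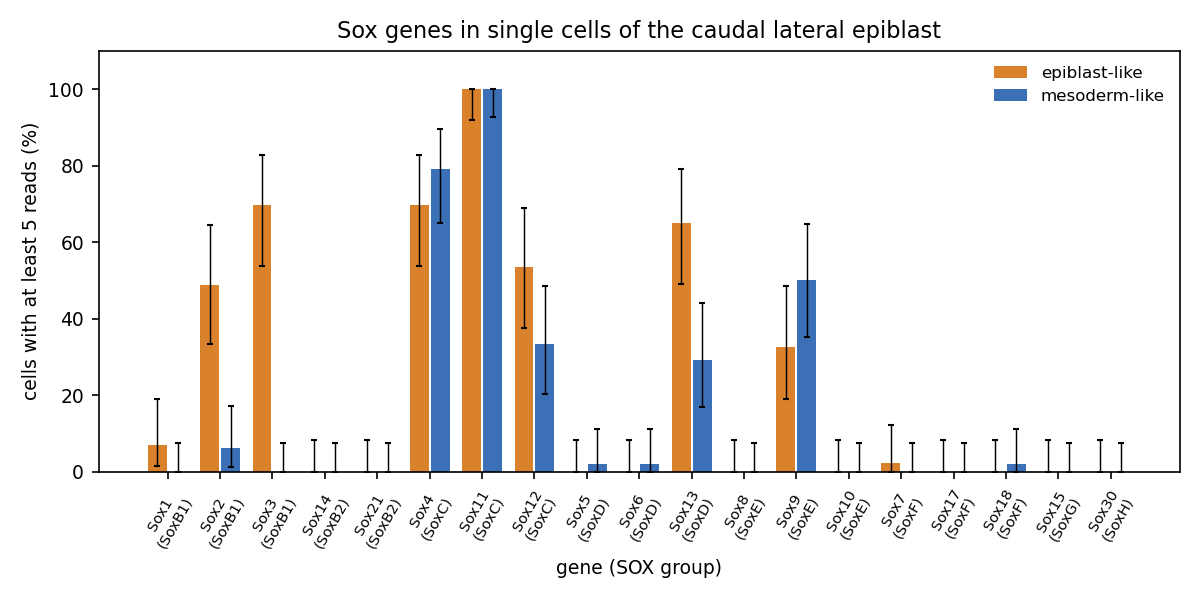
Bars are shares of cells (%) with at least 5 reads of 19 Sox genes, ordered by group, with the 43 epiblast-like cells in orange and the 48 mesoderm-like cells in blue; lines are exact 95% Clopper-Pearson intervals, which cover counting error only. Sox11 is at 100% in both, and among genes outside the 6 only Sox13 and Sox9 exceed 5% of cells.

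Of 5 genes for POU proteins, the usual partners of SoxB1 proteins, 0 reached 2-fold toward epiblast-like cells, 2 toward mesoderm-like cells and 3 stayed under it. The shares over all measured genes were 8.18% and 9.55%. Pou5f1 (Oct4), the partner of Sox2 in pluripotent cells, was read in 43 epiblast-like and 46 mesoderm-like cells, at 98.6 ± 66.8 and 53.5 ± 42.4 CPM (log2 ratio 0.87). Pou2f1 (Oct1), which is found in most tissues, was at 63.3 ± 69.6 and 50.9 ± 83.3 CPM. Pou3f1 (Oct6), an epiblast and neural partner, was at 2.77 ± 6.45 and 2.12 ± 10.1 CPM, with reads in 11 and 5 cells. The 2 that were higher, Pou3f2 and Pou3f3, were read in only 2 and 4 mesoderm-like cells and were named after their values were seen.

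Of 13 genes of the neural plate 9 were measured, of which 1 reached 2-fold toward epiblast-like cells, 3 toward mesoderm-like cells and 5 stayed under it. Over all measured genes 8.18% and 9.55% did so. Nes, an intermediate filament gene that neural progenitors share with early muscle lineages, was read in 27 epiblast-like and 43 mesoderm-like cells, at 25.2 ± 34.6 and 61.4 ± 72.8 CPM (log2 ratio -1.26). The others past 2-fold were named after their values were seen. Neurog2 was read in 3 cells, all epiblast-like, and so met the minimum for a measured gene through these alone. Irx3 (4 and 5 cells) and Otx2 (6 and 10 cells) were past 2-fold toward mesoderm-like cells. Pax6, an early neural gene named in the same way, was read in 3 and 4 cells. The median log2 ratio of the measured genes of the list was -0.54.

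Of 8 genes linked to SoxC proteins or to neuronal differentiation 7 were measured, of which 2 reached 2-fold toward epiblast-like cells, 3 toward mesoderm-like cells and 2 stayed under it. Among all measured genes 8.18% and 9.55% were past 2-fold in these directions. Tubb3, a neuronal tubulin gene, was the furthest from 0, with reads in 17 epiblast-like and 38 mesoderm-like cells and means over all cells of a kind of 8.9 ± 18 and 75.8 ± 100.5 CPM (log2 ratio -2.96). The others past 2-fold were named after their values were seen. Toward epiblast-like cells these were Elavl3 (log2 ratio 2.14, reads in 14 epiblast-like and 2 mesoderm-like cells) and Prox1 (2.63, 13 and 5). Toward mesoderm-like cells they were Map2 (-1.92, 4 and 13) and Isl1 (-2.41, 1 and 5). The median cell of both kinds was at 0 for each of them, so the ratios rest on a minority of cells. Tead2, which encodes a partner of the YAP protein and was also named after the values were seen, was read in all 91 cells, at 134 ± 64.9 and 204 ± 108 CPM. The median log2 ratio of the measured genes of the list was -0.60.

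The genes whose CPM was most alike that of a member across cells were found by Spearman's rho, a description of cells that share a preparation and differ in depth. Over all 91 cells, among 7424 genes read in 50% or more of them, the highest rho was 0.48 for Sox2 (with the mitochondrial tRNA gene mt-Tp, then Gm47882 and Cdh1), 0.40 for Sox4 (Hoxb4, Ap3b1 and Tm9sf1), 0.44 for Sox11 (Tgs1, Mir703 and mt-Co1) and 0.39 for Sox12 (Zcchc9, Skida1 and Fam162a). Over the 43 epiblast-like cells, among 7696 genes, it was 0.60 for Sox2 (Afdn, Nsd2 and Clint1), 0.54 for Sox3 (Strap, Pigyl and Yars), 0.61 for Sox4 (Dnm2, Tagap1 and Acot7), 0.55 for Sox11 (Impad1, Zfp445 and Tmtc3) and 0.55 for Sox12 (Rpl17, 2410006H16Rik and Nsmce3). Each of these is the largest of 7424 or 7696 values over 91 or 43 cells. How high such a maximum would be for unrelated genes was not computed, so shared expression with a member is not shown. No member was among the nearest genes of another. Between members rho lay from -0.25 (Sox2 and Sox11) to 0.25 (Sox3 and Sox12) in epiblast-like cells.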

How the data were processed

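Full-length cDNA of sorted single cells was sequenced after Smart-seq2. The authors aligned reads to GRCm38 (mm10) with HISAT2 and deposited raw counts of reads per annotated gene from featureCounts; the sources used state neither versions nor annotation nor strand setting. Every column was matched to 1 cell, no 2 columns were identical, and 53274 of 53379 identifiers matched a symbol. Total counts per cell were 709866 to 4439571.

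Counts were scaled to 1000000 per cell (CPM) with pandas 2.3.3 in Python 3.11.15; intervals came from scipy 1.17.1 and k-means from scikit-learn 1.9.0. Log2 ratios are of mean CPM with a pseudocount of 1, called at 2-fold. RPKM used union exon lengths of GENCODE vM21. The 91 cells are 1 sample, so no test was run. Reads carry no molecular identifiers, and exact 95% intervals and floors (3 counts) cover counting error only. All cells were kept, and doublets were not called in these sorted cells. The fold step was tested on simulated counts in which only genes with a mean of at least 10 CPM were changed. The likeness step was tested with a gene built to follow another. Neither test covers members as sparse as Sox1 and Sox12.

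The 6 members and all lists were chosen with earlier results of these data known. Named are the members, genes that overlap them, Nkx1-2, Aldh1a2 and T, the 3 genes most alike each member that was read in 50% or more of cells, and, of each other list, up to 4 genes past 2-fold that were read in 50% or more of the higher cells, or otherwise the 3 read in the most cells. Marker lists are given by counts. Alternatives changed the scaling, pseudocount, detection minimum, division of cells and depth. In the comparison of settings a log2 ratio counts as moved when it shifts by over 1.5-fold or crosses 2-fold, a share when it leaves its interval.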

Additional observations from a re-analysis of the deposited data

How the results depend on the processing

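Of 152 recomputed values 110 stayed and 42 moved, and 0 were labelled reversed. No log2 ratio past 2-fold in the main setting passed it on the other side. Sox12, under 2-fold at -0.45 in the main setting, did change sign, to 1.38 by the median over cells. Every log2 ratio, epiblast-like over mesoderm-like, kept its place with size factors, thinning, marker-based or k-means cells, where 1 cell (B10) changed sides. With a pseudocount of 10 CPM it was 0.27 for Sox1, 1.44 for Sox2 and 1.07 for Sox3, and with 0.1 CPM 4.42, 4.02 and 6.79. By the median over cells it was 0 for Sox1, 0.61 for Sox2 and 1.38 for Sox12. Without the 4 cells near the division Sox2 was at 3.94, and without cell E12, a choice made after the data were seen, as was leaving out A11 for Sox1, at 3.93. Without the cells with at least 5 reads of a marker of another tissue, also chosen after the data were seen, Sox12 was at -1.05 and passed 2-fold.

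At 5 or more reads the share of epiblast-like cells was 48.8% for Sox2, 69.8% for Sox4 (also Sox4 with Sox11) and 53.5% for Sox12 (also with Sox11). At 10 CPM or more it was 41.9% for Sox2, 44.2% for Sox3, 51.2% for Sox4 (also with Sox11), 16.3% for Sox12 (also with Sox11) and 16.3% for Sox2 with Sox3. After thinning to 500000 counts it was 51.2% for Sox2, 83.7% for Sox4 (also with Sox11) and 60.5% for Sox12 (also with Sox11). For mesoderm-like cells the same settings gave 6.25%, 2.08% and 14.6% for Sox2 and 33.3%, 18.8% and 35.4% for Sox12 (also with Sox11), and 10 CPM gave 45.8% for Sox4 (also with Sox11). Among genes with a mean of at least 10 CPM 484 were 2-fold higher in epiblast-like and 676 in mesoderm-like cells, against 1476 and 1724 of all measured genes. This filter tests fewer genes, whose number is not given here, so the counts cannot be compared as shares. For the others the cause was not tested. Scaling to spike-in reads was not run; these were not analysed here. No paired analysis was possible because the cells form 1 group. With reads in 0 of 48 cells, a share of up to 6.25% is allowed by the floor of 3.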
